A study of Mus musculus with 33 samples.

Results

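The collagens, laminins and integrins were examined as 78 genes of the 21877 with a row in the deposited tables, chosen by a rule on the gene symbol. They comprise 42 collagens, 11 laminins and 25 integrins, the last divided into 17 alpha and 8 beta chains. The symbols of Col12a1, Col6a3 and Itga10 also match but are not analysed here. Expression was measured in mouse embryonic stem cells differentiated without serum as embryoid bodies, which are floating aggregates of cells. The bodies were taken apart on day 2, treated until day 4 and then harvested. In the dose set, made by DP-seq (amplification of cDNA with chosen heptamer primers), the control in serum-free medium (SFM) had 2 libraries, the inhibitor SB-431542 (SB), which blocks the type I receptors of activin, Nodal and TGF-β, had 1, activin A at 3 ng/mL (AA3) had 1, at 15 ng/mL (AA15) had 2 and at 100 ng/mL (AA100) had 1. AA3 and AA100 were also sequenced by standard RNA-seq from 20 ng of mRNA (2 and 1 libraries), by DP-seq from 50 pg (1 and 2 libraries) and by SMART-seq, a full-length cDNA amplification, from 50 pg (2 and 2 libraries). AA3 mRNA was also diluted for DP-seq, with 2 libraries at each of 6 inputs from 10 ng down to 1 pg. The labels name no cell line or genotype, and the paired libraries other than SFM are labelled as technical replicates, so their spread is that of 1 sample measured again.

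Collagens are secreted proteins of 3 chains. Types I, III and V form fibrils in connective tissue, and type IV forms the network of basement membranes, the thin sheets under epithelia. Laminins, each with an alpha, a beta and a gamma chain, form the other network of these sheets, and in the early embryo they are laid down before type IV collagen. Integrins are receptors of an alpha and a beta chain that bind such matrix and link it to the cytoskeleton. In the gastrulating embryo, cells that enter the primitive streak under Nodal signalling leave an epithelium that rests on a basement membrane, and activin is used in culture in place of Nodal.

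The 7 dose set libraries held 13053122 to 15707808 counts, and the 10 libraries of the method comparison held 10389043 to 30609013. The SFM libraries stood far apart: one has a yeast RNA spike in its label (replicate 2), and among the 31 members with at least 10 reads in both, the median absolute log2 ratio between them was 0.94, against 0.26 for 35 members in the AA15 pair and 0.11 for 47 members in the standard RNA-seq AA3 pair. Calls that rest on SFM are therefore given with both SFM libraries and with each left out. Of marker lists for cell types in the dose set, those for the primitive streak and definitive endoderm had 4 of 11 tested genes rising along the doses and those for neuroectoderm had 4 of 9 falling, where 0.396% of all genes passed. Without SFM replicate 2 these were 9 of 11 and 9 of 9 (5.79% of all genes), and without SFM replicate 1 they were 0 of 11 and 2 of 8 (0.0168% of all genes). In bulk samples such as these, fewer cells of a type and less RNA per cell cannot be told apart. Values are CPM (each library's counts scaled to a common total, with TMM factors within each set), and calls are at a Benjamini-Hochberg adjusted p under 0.05 in edgeR over all genes tested.

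The integrin beta 1 chain and the chains of a laminin and type IV collagen sheet were the most abundant members per transcript length. In standard RNA-seq, where reads can be set against length, Itgb1, the beta chain shared by most matrix-binding integrins, had a mean over 3 libraries of 143 CPM per kb. It was followed by Lamb1 at 45.5, Lamc1 at 41.9, Col4a1 at 36.8 and Lama5 at 36.7 CPM per kb, which are the laminin beta 1, gamma 1 and alpha 5 chains and the type IV collagen alpha 1 chain. The integrin alpha chains with the highest levels were Itga6, a laminin receptor chain, at 22.2, and Itga5, the fibronectin receptor chain, at 17.4 CPM per kb. Lamb1, Lamc1, Col4a1 and Lama5 lay close together, and the order of the neighbours changed between libraries: Lamc1 was below Lamb1 in both AA3 libraries and above it in the AA100 library. Itgam and Itgad, alpha chains of leukocyte integrins, had no read in any of the 33 libraries. In the dose set, Itgb1, Col4a1, Lamb1 and Lamc1 together took 84.0% to 89.7% of the members' reads. Their share was lower in standard RNA-seq, at 51.5% and 51.7% in AA3 and 60.0% in AA100, and it was 64.4% to 76.1% in the 50 pg libraries.

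**Figure D1:**
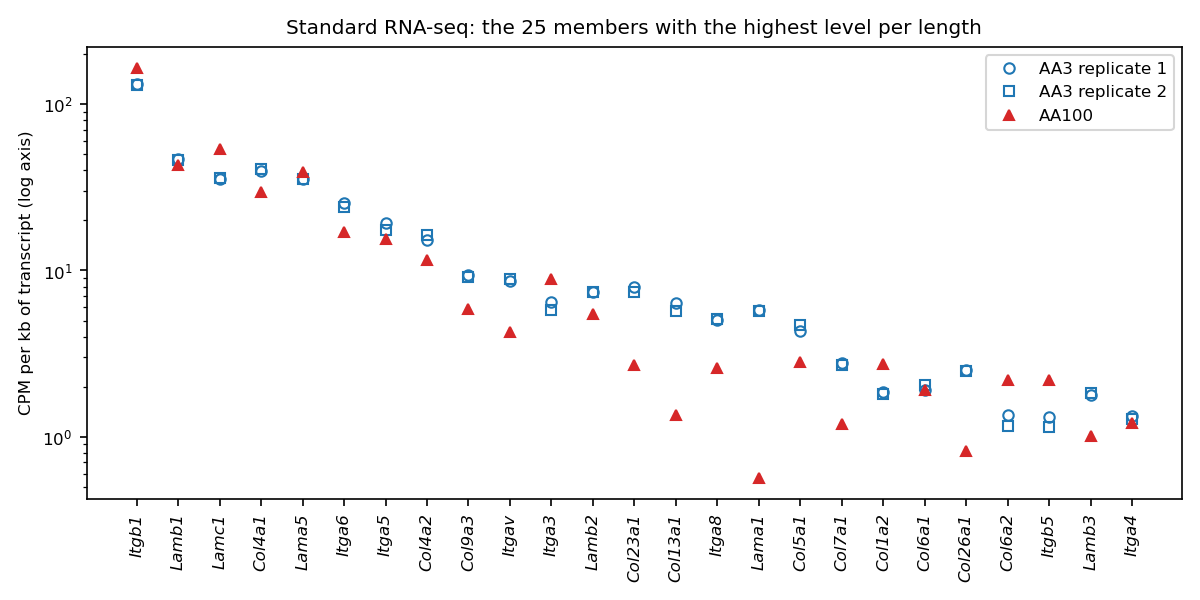
CPM per kb of transcript (log axis) of the 25 members with the highest mean level in standard RNA-seq, with 1 symbol for each of the 2 AA3 libraries and the AA100 library. Itgb1 sits alone at the top at 130 to 167 CPM per kb. The AA100 library lies below both AA3 libraries for most of the members shown, among them Lama1, Col13a1 and Col23a1.

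Along SFM, AA3, AA15 and AA100, taken as 4 equal steps, 1 of 50 members tested passed the test, against 0.396% of all 12106 genes. The member was Col13a1, and 11 members had an unadjusted p under 0.05. DESeq2 called 3 members (Col13a1, Itgb8 and Lama1), against 4.11% of all genes. The median slope of the members was -0.04 log2 per step, beside 0.00 for all genes. Without SFM replicate 2, 5 of 48 members passed (Col13a1, Col19a1 and Itga8 rose, Col4a2 and Lama1 fell), against 5.79% of all genes. Without SFM replicate 1, 0 of 47 members passed in edgeR (9 had an unadjusted p under 0.05), against 0.0168% of all genes. In standard RNA-seq, AA100 was higher than AA3 for 12 of 51 members tested and lower for 26, against 31.1% of all 12607 genes higher and 31.1% lower. At 2-fold or more, 2 members were higher and 12 lower, against 6.66% and 6.45% of all genes. The median of the members was -0.44 on the log2 scale, beside -0.01 for all genes. These standard RNA-seq calls rest on the closeness of 2 AA3 technical replicates and 1 AA100 library: in a joint fit that shared its spread with the 50 pg libraries, 0 of 57 members passed in edgeR, against 1.91% of all genes, and 2 had an unadjusted p under 0.05. DESeq2 on the 3 standard libraries called 21 of 51, against 35.2% of all genes.

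Lama1, the alpha chain of the laminin of the earliest embryonic basement membranes, fell more than any other member in standard RNA-seq and was lowest at the highest doses of the dose set. It was at 53.6 and 69.7 CPM in SFM, 38.8 in SB, 47.4 in AA3, 23.7 and 22.7 in AA15 and 15.7 in AA100 of the dose set. Both AA15 libraries and the AA100 library lay below every SFM, SB and AA3 library. Its slope of -0.69 ± 0.13 (SE) log2 per step had an adjusted p of 0.092 in edgeR, and -0.65 ± 0.10 with an adjusted p of 0.0013 without SFM replicate 2. Without SFM replicate 1 it was -0.76 ± 0.14 with an adjusted p of 0.10. In standard RNA-seq it was at 55.1 and 54.0 CPM in AA3 and 5.35 in AA100, a fall by 3.35 ± 0.14 on the log2 scale. That SE comes from the AA3 technical replicates. In the joint fit with the 50 pg libraries the log2 difference was -3.35 ± 2.17 and did not pass. In DP-seq from 50 pg it had 90 reads in AA3 and 2 and 16 in AA100, a log2 difference of -3.62 ± 1.46 that did not pass (edgeR adjusted p = 0.21). In SMART-seq the reads were 29 and 47 in AA3 and 75 and 0 in AA100, so the AA100 libraries lay on either side of the AA3 pair.

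The beta and gamma chains that pair with Lama1 were measured beside it. Lamc1, the gamma chain of most laminins, was at 529 and 156 CPM in SFM, 440 in SB, 558 in AA3, 377 and 521 in AA15 and 323 in AA100. In standard RNA-seq it went the other way, from 269 and 276 CPM in AA3 to 413 in AA100, a rise of 0.60 on the log2 scale. Lamb1, the main beta chain here, was at 123 to 250 CPM throughout the dose set, and in standard RNA-seq it was at 273 and 266 in AA3 and 250 in AA100, a fall by 0.11. Lama5, the alpha chain of most later epithelial basement membranes, was at 404 and 407 CPM in AA3 and 443 in AA100 by standard RNA-seq, a rise of 0.13. Lama5 had only 3.63 to 8.78 CPM in the dose set, and 17.2 to 35.9 CPM in the low-input libraries, and in total-scaled values of DP-seq AA3 it was at 8.66 CPM in the dose set and 35.7 and 36.6 from 10 ng, so its level differed between library sets, also within DP-seq. Lama3, an alpha chain of epithelial anchoring structures, rose from 8 and 9 reads to 28 in standard RNA-seq (log2 1.75). Of the 10 laminins tested there, 3 rose and 5 fell, and Lama4 did not pass.

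Col4a1 and Col4a2 encode the chains of the common type IV collagen and lie head to head. An annotated start of each on GRCm38.p6 lies 21 bases from the other on opposite strands of chromosome 8. These starts are at 11312826 for Col4a1 (minus strand) and 11312805 for Col4a2 (plus strand). The RefSeq bounds of Col4a1 reach further, to 11312889, and the 2 genes overlap over the stretch between the starts. The 22 bases between and including these starts are shown, plus strand, because the starts are their end bases and both genes fell in standard RNA-seq. Capitals mark GGGCGG, the letters of a GC box, at bases 8 to 13.
Col4a1 and Col4a2 starts, chr8:11312805-11312826: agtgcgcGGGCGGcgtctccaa
In standard RNA-seq Col4a1 was at 263 and 271 CPM in AA3 and 196 in AA100, and Col4a2 was at 98.9 and 106 in AA3 and 74.5 in AA100. The AA100 library was below both AA3 libraries for each gene, by 0.45 ± 0.04 on the log2 scale for Col4a1 (log2 -0.45) and by 0.46 ± 0.06 for Col4a2 (log2 -0.46). From 50 pg the log2 differences were -0.18 ± 0.25 and -0.82 ± 0.86 in DP-seq and -0.67 ± 0.52 and 0.34 ± 0.86 in SMART-seq for Col4a1 and Col4a2, and none passed. In the dose set Col4a1 was at 788 and 201 CPM in SFM, 533 in SB, 870 in AA3, 404 and 642 in AA15 and 465 in AA100, and its SFM libraries spanned all others but AA3. Col4a2 was at 26.3 and 14.8 CPM in SFM, 21.4 in SB, 22.4 in AA3, 17.4 and 14.0 in AA15 and 12.1 in AA100. Its slope of -0.25 did not pass with both SFM libraries and fell by 0.39 without SFM replicate 2 (edgeR adjusted p = 0.038). Without SFM replicate 1 it was -0.15 and did not pass (adjusted p = 0.57). Of the other basement membrane collagens, Col7a1, the anchoring fibril collagen, fell from 25.4 and 24.9 CPM to 10.9 in standard RNA-seq, and Col18a1 was at 4.44 and 2.87 CPM in AA3 and 3.11 in AA100 and did not pass. Col4a3, Col4a4, Col4a5, Col4a6 and Col15a1 were below 1 CPM in all 3 standard RNA-seq libraries.

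**Figure D2:**
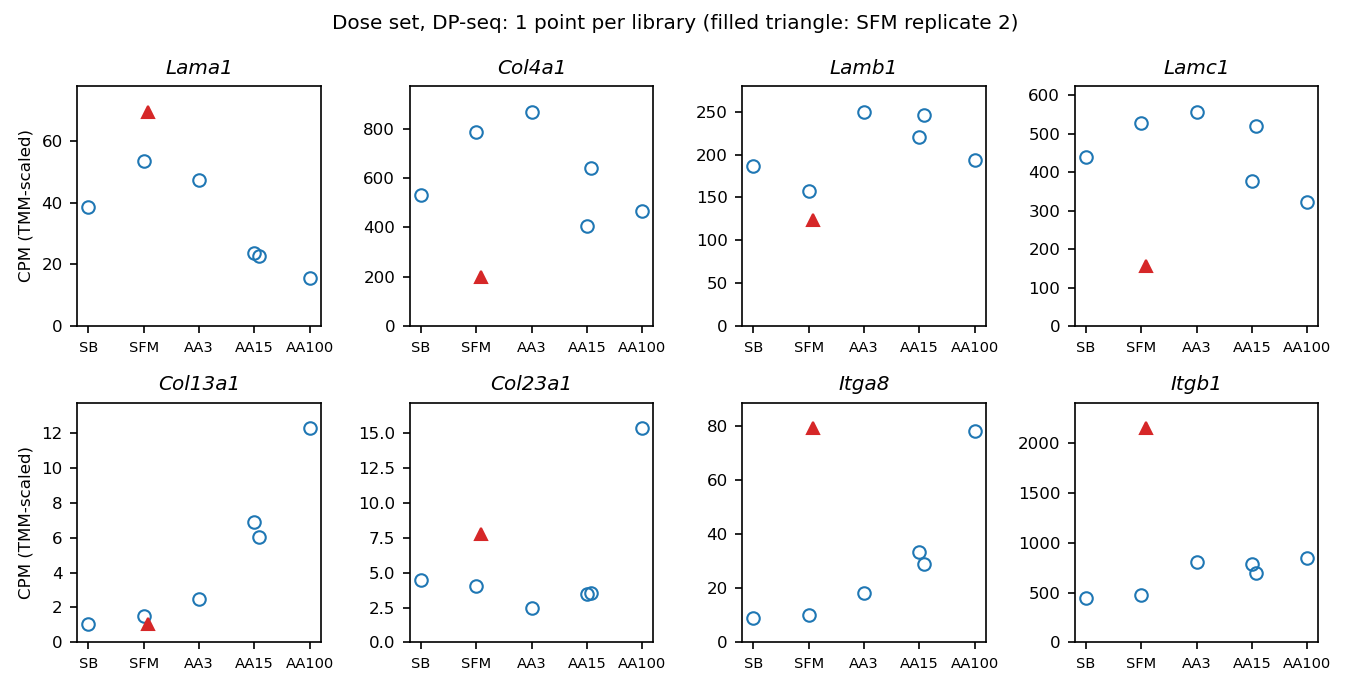
CPM (each axis from 0) of 8 members in the 7 DP-seq libraries of the dose set, with 1 point per library and SFM replicate 2 as a filled triangle. Lama1 is lowest in AA100 at 15.7 CPM and Col13a1 is highest there at 12.3 CPM, while SFM replicate 2 stands apart from replicate 1 for Itgb1, Itga8, Col4a1 and Lamc1.

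Col13a1, Col23a1 and Itga8 were higher in AA100 than in AA3 in the dose set and lower in AA100 in standard RNA-seq. Col13a1 and Col23a1 are transmembrane collagens, and Itga8 is an alpha chain that pairs with the beta 1 chain and is known for its part in kidney formation. Other members showed these directions too, among them Col5a1, Col9a3, Col22a1, Itga5 and Itgav. As examples, the 250 bases before an annotated start of Col13a1, Col23a1 and Itga8 on GRCm38.p6 are printed, 5′ to 3′ on the strand of the gene. The RefSeq bounds of the genes reach past these starts, so part of each window lies inside its gene. The bounds begin at 51289679 for Col23a1 and, on the minus strand, at 61979206 for Col13a1 and 12301985 for Itga8.
Col13a1, chr10:61979109-61979358, minus strand: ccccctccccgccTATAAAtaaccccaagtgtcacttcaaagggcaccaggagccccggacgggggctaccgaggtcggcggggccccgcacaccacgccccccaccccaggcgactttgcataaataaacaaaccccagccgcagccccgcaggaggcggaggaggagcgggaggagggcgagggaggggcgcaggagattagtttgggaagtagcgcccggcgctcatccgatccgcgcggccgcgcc
Col23a1, chr11:51289670-51289919, plus strand: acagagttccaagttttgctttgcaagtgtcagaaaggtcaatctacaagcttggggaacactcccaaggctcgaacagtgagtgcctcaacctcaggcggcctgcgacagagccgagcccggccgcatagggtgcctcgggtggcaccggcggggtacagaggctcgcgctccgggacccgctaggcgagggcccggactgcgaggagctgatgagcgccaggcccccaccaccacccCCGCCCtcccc
Itga8, chr2:12301945-12302194, minus strand: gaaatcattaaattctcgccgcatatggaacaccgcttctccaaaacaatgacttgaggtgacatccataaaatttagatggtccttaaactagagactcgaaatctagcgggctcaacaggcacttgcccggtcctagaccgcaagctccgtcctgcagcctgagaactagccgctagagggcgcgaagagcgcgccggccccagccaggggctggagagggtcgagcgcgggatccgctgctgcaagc
Capitals mark matches to any of 4 motifs, searched on both strands, and no matches overlapped here. For activin signalling the motifs were the Smad box, written CAGACA, and the core bound by FoxH1, written AATCCACA. For promoters in general they were the GC box, written GGGCGG, and the TATA box, written TATAAA. Col13a1 held 1 TATAAA, 237 to 232 bases before the start used here. Col23a1 held 1 GGGCGG on the other strand, 11 to 6 bases before the start used here and inside the gene bounds. Itga8 held none of these letters. Among all 32851 promoter windows of this length, 17.1% held CAGACA, 0.718% AATCCACA, 32.7% GGGCGG and 12.4% TATAAA. Of the 78 members, 56 had at least 1 entry in this table. The Itga8 window overlaps another annotated gene, E030013I19Rik.

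Col13a1 was, in the dose set, at 1.52 and 1.06 CPM in SFM, 1.06 in SB, 2.50 in AA3, 6.89 and 6.02 in AA15 and 12.3 in AA100, so the groups did not overlap from AA3 upward. Its slope was 1.11 ± 0.15 log2 per step (edgeR adjusted p = 0.039). The call was lost without either AA15 library (adjusted p = 0.22 each), without SFM replicate 1 (0.069) and with the logarithm of the dose in place of steps (0.059), with the same direction in each. In standard RNA-seq Col13a1 was at 20.2 and 18.1 CPM in AA3 and 4.28 in AA100, a fall by 2.16 ± 0.18. Col23a1 was at 4.04 and 7.81 CPM in SFM, 4.45 in SB, 2.50 in AA3, 3.45 and 3.53 in AA15 and 15.4 in AA100, which makes AA100 the only dose set library above 8 CPM. In standard RNA-seq it fell from 44.9 and 41.7 CPM in AA3 to 15.3 in AA100 (log2 -1.504 ± 0.109). Itga8 was at 10.2 and 79.2 CPM in SFM, 9.02 in SB, 18.5 in AA3, 33.5 and 29.1 in AA15 and 78.1 in AA100. SFM replicate 2 lay with AA100 and SFM replicate 1 with SB, so the slope of 0.17 per step did not pass, while it was 0.95 (edgeR adjusted p = 7.93e-05) without SFM replicate 2 and -0.02 without SFM replicate 1. In standard RNA-seq Itga8 fell from 29.3 and 29.5 CPM to 15.09 (log2 -0.96 ± 0.12).

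AA100 against AA3 within the dose set was compared after these values were seen. In the fit of all 7 libraries 0 of 50 members passed in edgeR and 0 in DESeq2, 2 had an unadjusted p under 0.05, and 0% of all genes passed. With SFM replicate 2 left out, 7 of 48 members passed against 4.64% of all genes, and with SFM replicate 1 left out the same 7 members passed against 4.99%. Col13a1, Col19a1, Col23a1, Col27a1 and Itga8 were higher in AA100, and Col4a1 and Lama1 were lower. Without SFM replicate 2 the log2 differences were 2.30 ± 0.42 for Col13a1, 2.62 ± 0.41 for Col23a1, 2.09 ± 0.31 for Itga8, -1.59 ± 0.31 for Lama1 and -0.89 ± 0.29 for Col4a1. AA3 and AA100 have 1 library each here, so their spread is taken from the AA15 pair and, in the full fit, the SFM pair. Both fits with an SFM library left out use the same AA3, AA15 and AA100 libraries, so their agreement is not a second result. The difference between these dose set values and those of standard RNA-seq was 4.45 ± 2.06 for Col13a1, 4.12 ± 0.93 for Col23a1 and 3.05 ± 1.45 for Itga8. None passed in edgeR (adjusted p = 0.91, 0.17 and 0.93), 0 of 62 members passed and 2 had an unadjusted p under 0.05, against 0.518% of all genes passing.

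The AA3 libraries of the 2 DP-seq sets were themselves unlike. With each library scaled to its own total, Lama1 was at 48.3 CPM in the dose set AA3 library and at 6.43 and 9.39 in the AA3 libraries from 10 ng. Col13a1 was at 2.55 in the dose set and at 17.7 and 26.1 from 10 ng, and Col23a1 was at 2.55 against 25.1 and 18.6. Col4a1 was at 885 against 162 and 183. For each of these 4 genes both 10 ng AA3 values lay beyond the AA100 library of the dose set, which was at 16.1 for Lama1, 12.6 for Col13a1, 15.7 for Col23a1 and 476 for Col4a1. The summed level of the 12 streak and definitive endoderm markers was 394 CPM in the dose set AA3 library, 2039 in its AA100 library, 1555 and 1534 in standard RNA-seq AA3 and 2373 in standard RNA-seq AA100, and its part in these differences was not tested.

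Of the fibrillar collagens 3 of 9 tested rose and 4 fell in standard RNA-seq, near the shares of all genes (31.1% each way). Col1a2, a type I collagen chain, rose from 9.89 and 9.67 CPM to 14.6, and Col5a2, a type V chain that sets fibril width, rose from 3.70 and 3.25 to 5.55. Col5a1, the partner of Col5a2, fell from 36.1 and 39.6 CPM to 23.8, so the type V chains moved in opposite directions in this method. By DP-seq from 50 pg both had more reads in AA100, Col5a1 with 171 against 295 and 440 and Col5a2 with 74 against 482 and 323. Both also had more in AA100 than in AA3 of the dose set (155 to 242 and 293 to 375 reads). In SMART-seq the AA3 and AA100 libraries of each overlapped. Col11a2 fell from 7.30 and 7.08 CPM to 1.95 and Col2a1 from 4.81 and 5.17 to 1.56, both chains of cartilage fibrils. Col1a2 was, in the dose set, at 13.8 and 15.8 CPM in SFM and 21.7 in SB, and at 3.76 to 6.26 in the 4 activin libraries, with no overlap between those with and those without activin. It was called lower in AA3, AA15 and AA100 against SFM with either SFM library left out. Col5a2 was at 11.4 and 62.3 CPM in SFM and at 18.3 to 28.3 in the activin libraries, so its direction against SFM turned with the SFM library used. Col11a1 had 11.3 CPM in SFM replicate 1 and 0.10 in replicate 2.

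Of the other collagens, 8 of 13 tested fell in standard RNA-seq and Col6a2 alone rose, against 31.1% of all genes each way. Besides Col13a1 and Col23a1, the falls were in Col9a1 (3.79 and 3.83 to 0.78 CPM) and Col9a3 (26.6 and 26.1 to 16.6 CPM), which coat cartilage fibrils, in Col22a1 (11.7 and 10.3 to 4.87 CPM), a collagen of tissue junctions, in Col26a1 (6.84 and 6.80 to 2.24 CPM), and in Col14a1 and Col8a2, which were under 4 CPM. Col6a2, a chain of the microfibrillar type VI collagen, rose from 5.36 and 4.59 CPM to 8.66, and its partner Col6a1 was at 7.86 and 8.42 CPM in AA3 and 7.79 in AA100. Col19a1 reached 20 reads in AA100 of the dose set and had 0 to 10 in the other libraries of that set. Its slope was called without SFM replicate 2 alone.

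The integrins were first read in standard RNA-seq, where 31.1% of all genes passed each way. Itgb1 went from 507 and 497 CPM in AA3 to 635 in AA100, a rise of 0.34 ± 0.02 on the log2 scale. Itgb5, a vitronectin receptor chain, and Itgb7 also rose, from at most 4.16 CPM, while Itgb8, which activates latent TGF-β, fell from 5.73 and 5.55 CPM to 2.04. Of 5 beta chains tested 3 rose and 1 fell. Among 10 alpha chains 2 rose and 5 fell. Itga3, a laminin receptor chain, rose from 31.5 and 28.2 CPM to 43.1 and Itga2b, the platelet chain that also marks early blood progenitors, from 3.14 and 2.58 to 5.84. Itgav, the chain of the vitronectin and latent TGF-β receptors, fell from 60.9 and 62.4 CPM to 30.3. Itga6 fell from 110 and 103 CPM to 73.9, Itga5 from 84.7 and 76.3 to 67.4, and Itga1, a collagen receptor chain, from 8.23 and 9.09 to 4.77. Itga4 was at 13.0 and 12.4 CPM in AA3 and 11.9 in AA100 and did not pass.

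In the dose set Itgb1 was at 480 and 2150 CPM in SFM, 442 in SB, 807 in AA3, 791 and 698 in AA15 and 846 in AA100. The activin libraries lay above SB and SFM replicate 1 and far below SFM replicate 2, and the difference between AA100 and SFM was -0.64 log2 with both, 0.82 (edgeR adjusted p = 0.035) without replicate 2 and -1.35 (edgeR adjusted p = 1.74e-06) without replicate 1. Itga6 stayed at 30.9 to 43.9 CPM and Itga5 at 15.3 to 23.1 CPM over all 7 libraries. Itgav was at 6.76 to 9.26 CPM in 6 libraries and at 17.5 in SFM replicate 2. The activin and SFM ranges of Itga5 overlapped, and those of Itga6 did not (36.2 to 43.9 against 31.3 and 32.3 CPM), with a slope of 0.06 that did not pass.

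SB-431542 was compared with SFM to see what blocking endogenous signalling did. No member passed in edgeR (0 of 50, none at an unadjusted p under 0.05, 0% of all genes) or in DESeq2 (0.115% of all genes). Without SFM replicate 2, 1 of 48 members was called, against 4.16% of all genes. Without SFM replicate 1, 20 members were called, against 58.4% of all genes, and 0 were called in the same direction both ways. The SB comparison rests on 1 SB library.

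Every activin dose was then set against SFM. With both SFM libraries 0 of 50 members passed in edgeR at any dose, where 0% of all genes passed as well. In DESeq2 0 of 50 passed too, against 0.115%, 1.39% and 0.854% of all genes in AA3, AA15 and AA100. In edgeR 1, 6 and 3 members had an unadjusted p under 0.05 in AA3, AA15 and AA100. Without SFM replicate 2, 1 of 48 members passed in AA3, 10 in AA15 and 10 in AA100, against 5.29%, 13.0% and 13.0% of all genes. Without SFM replicate 1, 26, 32 and 29 passed, against 57.3%, 64.7% and 59.2% of all genes. In these fits the median of all genes itself lay at 0.13, 0.17 and 0.15 log2 above SFM. Members called in the same direction both ways were Col1a2 (lower) in AA3. In AA15 they were Col13a1 and Lama3 (higher) and Col11a2, Col1a2 and Lama1 (lower), and in AA100 Col13a1, Col19a1 and Col23a1 (higher) and Col1a2 and Lama1 (lower). The share of all genes called in the same direction both ways was not computed, so these lists cannot be set against all genes. For Lama1 the AA100 difference from SFM was -1.97 with both, -1.78 without replicate 2 and -2.16 without replicate 1.

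**Figure D3:**
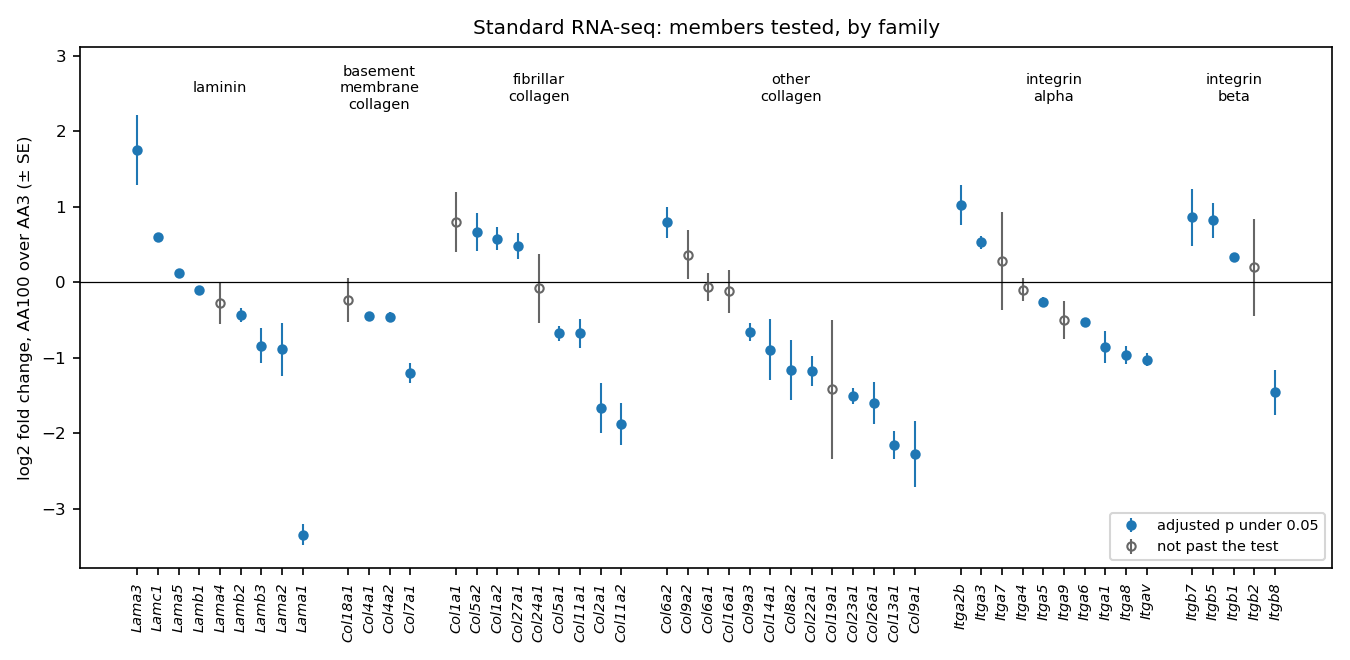
Log2 fold change of AA100 over AA3 (± SE) in standard RNA-seq for 50 of the 51 members tested, grouped by family, with filled points for an adjusted p under 0.05. Lama1 lies lowest at -3.35, Lama3 highest at 1.75, and no basement membrane collagen lies above 0.

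The 50 pg libraries were made to set low-input methods against standard RNA-seq. In DP-seq from 50 pg 1 of 40 members passed, against 3.43% of all 11631 genes: Col5a2, at 6.97 CPM in AA3 and 43.0 and 23.6 in AA100, rose by 2.25 ± 0.60 (edgeR adjusted p = 0.033). It did not pass in the joint fit, where 0 of 57 members passed against 2.34% of all genes. In SMART-seq from 50 pg 0 of 37 members passed in edgeR, against 1.34% of all 11455 genes, and 5 had an unadjusted p under 0.05. DESeq2 called 1 of 37 (Itga7), against 9.91% of all genes, and the joint fit called 1 of 57 (Col23a1), against 4.08%. Of 26 members tested in all 3 methods, 6 were higher in AA100 in each (Col1a2, Col5a2, Itga3, Itgb1, Lama5 and Lamc1) and 7 lower in each (Col13a1, Col23a1, Col4a1, Itga4, Itga6, Itga8 and Itgav). These are estimates, most of them not past the test in the 50 pg libraries. The share of all genes with 1 direction in the 3 methods was not computed, so these counts do not set the members apart. Some signs depend on single libraries: by SMART-seq Col5a2 had 0 and 33 reads in AA3 and 42 and 1 in AA100. Itgb1 in SMART-seq turned to -0.018 in the joint fit. Col23a1 was at 22.5 CPM in AA3 and 5.62 and 6.21 in AA100 by DP-seq (log2 -1.93 ± 0.69) and at 7.27 and 4.23 against 1.20 and 0.94 by SMART-seq (log2 -2.42 ± 0.80), with no overlap of the doses in either method. Itgav by SMART-seq was at 26.8 and 17.5 CPM in AA3 and 8.50 and 10.2 in AA100, also without overlap (log2 -1.24 ± 0.38, edgeR adjusted p = 0.19).

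The difference in AA100 against AA3 between methods was itself tested. Between DP-seq and standard RNA-seq 0 of 57 members passed in edgeR and 0 in DESeq2, none had an unadjusted p under 0.05 in edgeR, and 0.739% of all genes passed in edgeR and 3.49% in DESeq2. Between SMART-seq and standard RNA-seq 0 of 57 passed in both tools, 3 had an unadjusted p under 0.05 in edgeR, and 0.859% of all genes passed in edgeR and 3.23% in DESeq2. For Lama1 the difference between SMART-seq and standard RNA-seq was 3.38 ± 2.55, and for Itga8 it was -2.38 ± 1.29. For Lamc1 the difference of DP-seq from standard RNA-seq was 0.14 ± 0.53.

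**Figure D4:**
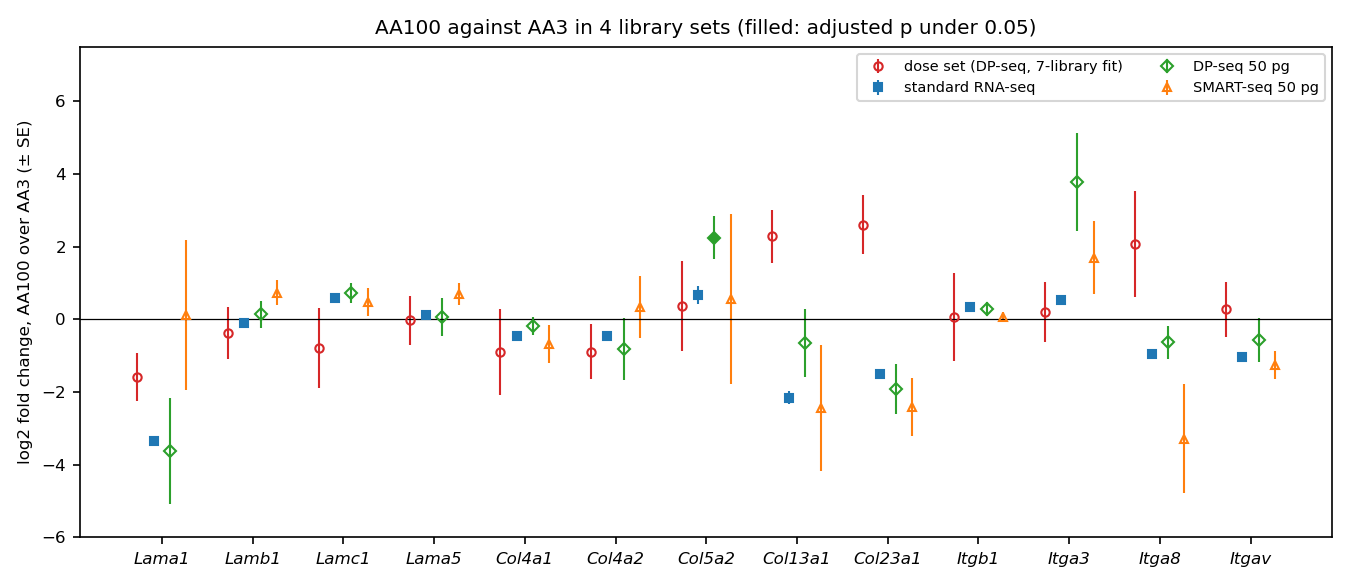
Log2 fold change of AA100 over AA3 (± SE) for 13 members in the dose set and in 3 methods, with filled symbols for an adjusted p under 0.05. Col13a1, Col23a1 and Itga8 lie above 0 in the dose set and below 0 in standard RNA-seq, and Lama1 lies below 0 in both.

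Members dropped out of single 50 pg libraries while a technical replicate held them. Counting members with at most 1 read in one library and at least 20 in its pair, there were 11 of 32 in SMART-seq AA100, 6 of 34 in SMART-seq AA3 and 4 of 33 in DP-seq AA100. In standard RNA-seq AA3 and in AA15 of the dose set there were 0 of 45 and 0 of 33. The SFM pair of the dose set had 2 of 38 (Col11a1 and Col16a1), and the 50 pg pair of the dilution series had 1 of 23 (Col11a1). The SMART-seq AA100 drop-outs included Lama1 (75 and 0 reads), Lama3 (209 and 0) and Itga8 (1 and 22). Over all genes the drop-out share was 6.50% in SMART-seq AA100, 5.63% in SMART-seq AA3 and 4.15% in DP-seq AA100. It was 2.94% in the SFM pair and 1.67% in the 50 pg pair of the dilution series.

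In the dilution series the number of members with a read fell from 51 and 64 at 10 ng to 19 and 19 at 1 pg, and those with at least 10 reads from 23 and 39 to 5 and 3. Over all genes those with a read fell from 13128 and 14604 to 6491 and 6424. Library totals fell as well, from 3110866 and 10324740 counts at 10 ng to 427556 and 448933 at 1 pg, and the part of depth was not tested. Itgb1 had 1822 and 5700 reads at 10 ng, 1600 and 1391 at 50 pg, 635 and 548 at 10 pg, and 44 and 1 at 1 pg. Lamc1 had 133 reads in one 1 pg library and 1 in the other. Col4a1 had 19 and 54. At 10 pg Itga8 had at most 1 read, whereas scaled to the total it was at 28.4 and 45.5 CPM at 50 pg.

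**Figure D5:**
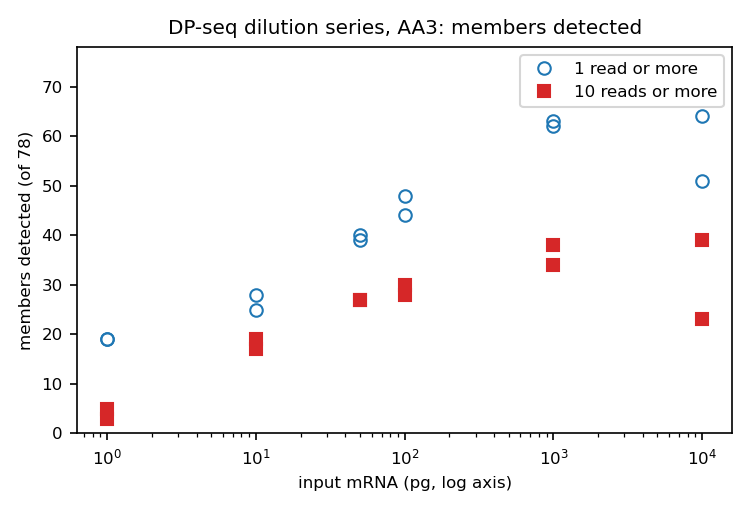
Number of the 78 members with at least 1 read (circles) and at least 10 reads (squares) in each DP-seq library of the AA3 dilution series, against input mRNA in pg (log axis). The counts fall to 19 and to 3 and 5 at 1 pg, and one 10 ng library of low total lies below the 1 ng libraries.

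Other matrix genes were read from lists of partners, whose standard RNA-seq counts stand against 31.1% of all genes higher and 31.1% lower. Of 15 tested genes for basement membrane and matrix partners, 10 fell and 2 rose in standard RNA-seq, with a median of -0.71. Fn1 (fibronectin, the ligand of the alpha 5 beta 1 integrin) was at 1130 and 1129 CPM in AA3 and 369 in AA100, and Frem2, a protein of the embryonic epidermal basement membrane, at 164 and 160 against 72.5. Sparc, a collagen-binding matrix protein, rose by 0.08. From 50 pg Fn1 was lower in AA100 as well, with 2084 reads in AA3 against 467 and 719 by DP-seq. By SMART-seq it had 2999 and 3858 reads in AA3 against 677 and 955 in AA100. Fn1 went the other way in the dose set, at 96.7 and 210 CPM in SFM, 60.3 in SB, 89.4 in AA3, 146 and 147 in AA15 and 426 in AA100, and 0 of 14 tested genes of this list passed the slope test in edgeR. Without SFM replicate 2, Fn1 and Smoc2 rose and Fras1, Frem2 and Nid1 fell along the doses, and without SFM replicate 1 0 of 14 passed. Npnt, a ligand of the alpha 8 integrin, was at 0 in all 17 libraries of the dose and method sets, which need not mean that it was absent.

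Among collagen and laminin processing genes, 5 of 21 tested rose and 4 fell in standard RNA-seq. P4hb, a subunit of the prolyl hydroxylase that stabilises collagen, was at 851 and 862 CPM in AA3 and 1346 in AA100. Of 11 tested genes for matrix breakdown 5 rose and 5 fell, with Adamts9, a matrix protease, rising by 0.63 and Timp3, a protease inhibitor, going from 28.7 and 29.9 CPM to 17.1. Among integrin adaptors and kinases 4 of 16 rose and 8 fell, Vcl (vinculin, which ties integrin contacts to actin) by 0.32 (log2 -0.32). Of 5 other integrin ligand and matrix receptor genes tested, 3 fell and none rose, and Sdc2, a syndecan, did not pass. In the dose slope with both SFM libraries 0 genes of these lists passed in edgeR, and without SFM replicate 2 Adamts9, Mmp14 and Fermt1 rose and Lox and Loxl3 fell. Without SFM replicate 1 again 0 genes of these lists passed.

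Markers of other cell types moved beside some of these members. The 12 extraembryonic endoderm markers summed to 876 and 2132 CPM in SFM, 713 in SB, 847 in AA3, 425 and 523 in AA15 and 260 in AA100. Lrp2 made up most of it, in the same order at 801 and 1952, 663, 730, 303 and 391, and 156 CPM. Gata6 went the other way, with 30 and 29 reads in SFM, 6 in SB, 57 in AA3, 80 and 100 in AA15 and 209 in AA100. Gata4 had 223 and 35 reads in SFM, 75 in SB, 209 in AA3, 211 and 258 in AA15 and 590 in AA100. In standard RNA-seq the same list summed to 156 and 144 CPM in AA3 and 240 in AA100, where Lama1 fell, and 5 of 8 tested markers rose and Lrp2 fell. Afp and Sox7 were at 1.16 CPM or less in each of the 7 dose set libraries. The 8 fibroblast and mesenchyme markers summed to 9.15 to 45.9 CPM in the dose set and 28.4 to 43.9 in standard RNA-seq, with Pdgfrb at 0 in all 7 dose set libraries; in standard RNA-seq 1 of 5 tested markers rose (Thy1) and 2 fell. The 4 leukocyte markers with a row summed to 1.33 to 20.6 CPM in the dose set, all of it Csf1r, and to 0.28 to 0.68 CPM in standard RNA-seq, with Ptprc at 0 in all 17 libraries. The blood and endothelial list reached 103 CPM in AA100 of the dose set against 4.07 to 22.8 in its other libraries, with Runx1 and Emcn at 0. Most of the AA100 value was Kdr, with 1531 reads, where Gata1 and Tal1 had 37 each and Pecam1 had 0. In standard RNA-seq 1 of 4 tested markers, Kdr, fell. The 9 neuroectoderm markers summed to 397 and 1113 CPM in SFM, 689 in SB and 25.2 to 120 in the activin libraries, and the 9 pluripotency and epiblast markers to 364 and 335 in SFM, 120 in SB and 943 to 2316 in the activin libraries. In standard RNA-seq 1 of 6 tested neuroectoderm markers rose and 2 fell, 7 of 8 pluripotency markers rose and 1 fell, and 9 of 12 streak and endoderm markers rose and 2 (T and Evx1) fell. All genes in standard RNA-seq stood at 31.1% higher and 31.1% lower beside these marker counts. The part of any of these cell types in the members' values was not tested. Markers at 0 need not be absent, because the effect of the counting on their reads was not tested.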

How the data were processed

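The deposited tables hold unique read counts per RefSeq transcript, per the file headers, unscaled. Of the 78 members 68 had a single transcript. Whether reads shared by several transcripts of a gene were counted was not tested. Zeros and low levels of the other members, among them Itgam with 2 transcripts, carry this limit. In 8 of 33 libraries, 15 values in all were not whole, so those deposited columns were taken as estimated counts and rounded. For the counting step, the sources used here name neither an aligner nor a build. Transcript counts were summed to 21877 genes by RefSeq names (GRCm38.p6; 25853 of 26566 transcripts, 154 more by GENCODE names, 559 unnamed). Tests were edgeR 4.0.16 quasi-likelihood fits (R 4.3.3, TMM, genes filtered at a minimum count of 10 and a total of 15, Benjamini-Hochberg), with DESeq2 1.42.0 as an alternative, and the scripts were tested on simulated data. Library totals ran from 427556 to 30609013 counts and limit what low members can show. Paired-end and single-primer-set libraries (4) were not compared.

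The members and lists were chosen with earlier results of these data known. Values are given for the 5 most abundant members of each of 6 role groups in the dose set, members past the slope test, and the 5 largest rises and falls of the slope and of each method comparison among those called with at least 50 counts. Other members named were chosen after their values were seen. Replicate numbers did not pair the samples. The values of 1 member are not reported here.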

Additional observations from a re-analysis of the deposited data

How the results depend on the processing

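Counts of members past the threshold depended on the fit. For AA100 against AA3 in standard RNA-seq 38 became 21 in DESeq2, 0 in the joint fit and 0 to 0 in the joint fit without either AA3 replicate. In DP-seq from 50 pg 1 became 0 in the joint fit and 0 to 0 there without either AA100 replicate, and in SMART-seq 0 became 1 in DESeq2 and 1 in the joint fit. The dose slope went from 1 to 3 in DESeq2, 0 with the log2 dose, and 0 to 5 when single replicates were left out. Leaving out single replicates gave 0 to 20 for SB, 0 to 26 for AA3, 0 to 32 for AA15 and 0 to 29 for AA100 against SFM, and 0 to 7 for AA100 against AA3 in the dose set, where a group left with 1 library borrows its spread from the rest. The cause was not tested.

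With the replicate block the slope called 0 members, and with the crossed replicate block, added after seeing the data, 0. Both blocks called 0 in the comparisons with SFM and in AA100 against AA3 of the dose set, and the block called 0 in SMART-seq. Deviations of same-numbered libraries correlated at -0.29 between SFM and AA15 (8435 genes) and -0.02 in SMART-seq (9304 genes), over 2 pairs each.

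Slopes whose sign turned when single replicates were left out, with SFM replicate 1 and SFM replicate 2 giving the ends, ranged from -0.301 to 0.189 for Col22a1, -0.170 to 0.139 for Col27a1, -0.317 to 0.170 for Col4a1, -0.194 to 0.076 for Col4a3, -0.048 to 0.125 for Col5a1, -0.419 to 0.381 for Col5a2, -0.085 to 0.504 for Col6a2, -0.017 to 0.950 for Itga8, -0.450 to 0.224 for Itgb1, -0.175 to 0.294 for Lamb2 and -0.237 to 0.235 for Lamc1. With SB as the lowest step Col5a1 turned to 0.027, Col5a2 to 0.0091, Lamb2 to -0.098 and Lamc1 to -0.0068. With the replicate block Col5a1 turned to 0.033, Col5a2 to 0.044 and Lamb2 to -0.0035, and with the crossed block Col5a1 to 0.025 and Col5a2 to 0.073. For AA100 against SFM, Col5a2 ranged from -1.40 to 1.05 with single replicates left out and was 0.18 with the block and 0.44 with the crossed block. Itgb1 ranged from -1.35 to 0.82 and was 0.12 and 0.24, and Itga8 ranged from -0.025 to 2.93. In standard RNA-seq Col24a1 ranged from -0.165 to 0.025 in the joint fit without either AA3 replicate.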
